A study of Mus musculus with 4 samples.

Results

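The 40 genes described here encode the enzymes and transporters of glycolysis, the oxygen-regulated HIF subunits HIF1A and EPAS1, and a set of genes known as targets of HIF. They were chosen by name and function, with earlier results of these data known. Of the 40, 37 had at least 1 probe set whose only annotated gene symbol was that of the member, and 36 of these were among the 13331 genes tested. No member was left out as too dim. Gapdh is read here only by control probe sets of the array, which stand outside the test of all genes and are described on their own. Gpi1 and Eno1 had no probe set under this rule, and those of Bnip3l also carry a second symbol, so these 3 genes were not analysed here. Of the 36 genes tested, 19 had more than 1 probe set above the filter on dim probe sets, and the one with the highest mean over the 4 arrays stands for the gene.

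Expression was measured in whole tumours on Affymetrix mouse arrays, with 1 array for each of 2 Eph_EN_DN tumours and 2 Eph_EN tumours. All 4 grew in nude mice, hosts that lack mature T cells, from transplanted Eph4 cells, an established line of mouse mammary epithelium. In both groups the Eph4 cells had been transduced with ETV6-NTRK3 (EN), a fusion oncogene that encodes a constantly active tyrosine kinase. In the Eph_EN_DN tumours the cells co-expressed TAM67, a dominant negative (DN) c-Jun that blocks the AP-1 transcription factor, and the series asks how much of EN-driven tumour growth passes through AP-1. The labels do not state strain, age, or whether each tumour had its own mouse or its own transduced culture. The p-values therefore measure only how far these samples spread, and that spread may be technical. Median array intensity was 38.1 and 40.8 in Eph_EN_DN tumours and 35.6 and 35.9 in Eph_EN tumours, and no depth or detection call was used. Because whole tumours were profiled, fewer cells of a type and less RNA per cell cannot be told apart for any gene below.

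Glycolysis splits glucose into pyruvate, and tumours often turn much of that pyruvate into lactate. Hypoxia-inducible factor (HIF) is made of an oxygen-regulated alpha subunit (such as HIF1A or EPAS1) and the constant partner ARNT. In the presence of oxygen the EGLN prolyl hydroxylases mark the alpha subunit for destruction, whereas in hypoxia it persists, enters the nucleus and raises transcription of glucose transporters, most glycolytic enzymes and genes of survival, acid export and oxygen sensing. This control acts largely on the protein, so the mRNA of Hif1a is not a measure of HIF activity.

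None of the 36 glycolysis and hypoxia response genes passed the test between Eph_EN_DN and Eph_EN tumours. The differences ran from -0.47 for Pkm to 0.57 for Hk2 on the log2(intensity + 16) scale, Eph_EN_DN minus Eph_EN, with 2 tumours in each group throughout. Their median was 0.075, against 0.019 for all genes tested, with 24 members positive and 12 negative. The median of the members was 0.19 without Eph_EN_DN tumour 1, -0.057 without Eph_EN_DN tumour 2 and -0.023 with each array centred on its median. With limma at a Benjamini-Hochberg adjusted p under 0.05, 0 of 36 members were called, where 0.555% of all genes tested were called in either direction, so a count of 0 is near that background. At an unadjusted p under 0.05 there were 2 of 36 members (5.56%), Pkm and Hk2, and 1306 of 13331 genes (9.80%). The lowest adjusted p of a member was 0.350, for Pkm.

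The fit set bounds on most of these genes. The standard error of a member's difference was between 0.16 and 0.39 (median 0.22). On the log2(intensity + 16) scale, the 95% interval lay within 2-fold in either direction for 32 of 36 members and 78.6% of all genes tested. The 4 members whose interval reached 2-fold were Slc2a3, Hk2, Eno2 and Adm. For dim genes these bounds depend on the pseudocount. With a pseudocount of 1 the standard errors of Car12 and Pfkfb3 were 0.58 and 0.52, against 0.39 and 0.37 here, too wide for bounds within 2-fold. A p-value that misses the threshold does not show that the groups were alike. These bounds are no detection limit, since a call depended on the standard error and on adjustment over all genes. Outside the members, Lum (-1.07 ± 0.265, SE) and Lpl (1.71 ± 0.398, SE) differed by more than 2-fold and were not called, whereas Spry1 (-1.05 ± 0.217, SE) was called. Changes within or beyond 2-fold could therefore be missed with 2 tumours in each group.

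**Figure D1:**
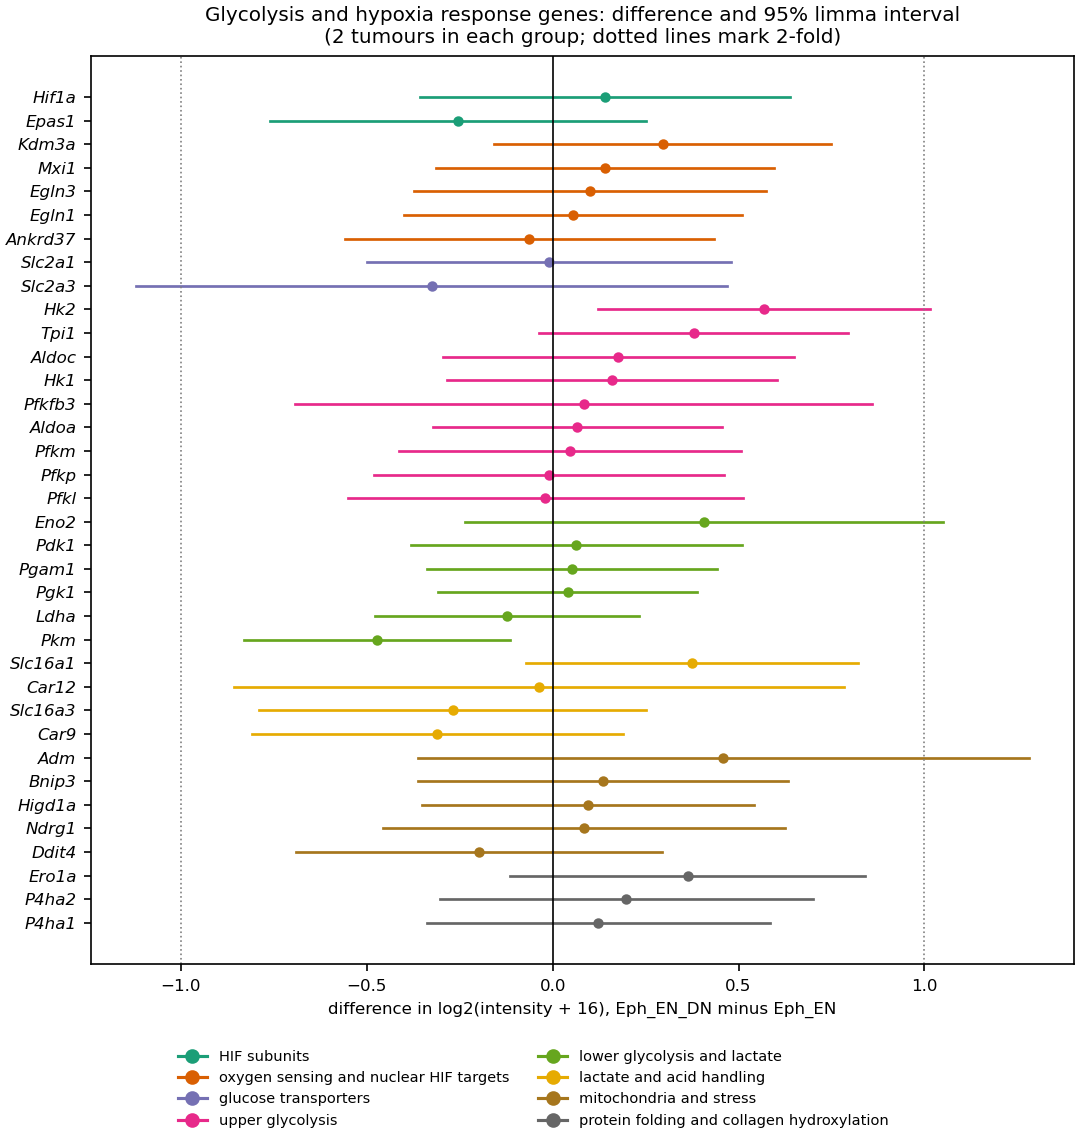
Difference in log2(intensity + 16), Eph_EN_DN minus Eph_EN, for the 36 genes tested, grouped by role. Points are the limma estimates over 2 tumours in each group, bars are 95% intervals, and dotted lines mark 2-fold; the intervals of Pkm and Hk2 do not reach 0, and neither gene passed after adjustment over all genes.

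In 6 members both Eph_EN_DN tumours stood above both Eph_EN tumours, where 20.2% of all genes tested did so, and in 3 members both stood below, where 20.0% of all genes did so. The 6 higher ones were Hk1, Hk2, Tpi1, Ero1a, Kdm3a and Slc16a1, and the 3 lower ones were Slc2a3, Pkm and Ldha. Together these 9 are 25.0% of the members, a smaller share than the background.

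Hk2 encodes hexokinase 2, the inducible enzyme that traps glucose in the cell as glucose 6-phosphate. It read 141 and 168 intensity units in Eph_EN_DN tumours, against 94.1 and 103 units in Eph_EN tumours. Both Eph_EN_DN tumours were above both Eph_EN tumours, and the groups did not overlap. The difference was 0.57 ± 0.21 (SE), a 1.48-fold ratio on that scale, with a 95% interval of 0.12 to 1.01 and an adjusted p of 0.367. Hk2 was read by a single probe set.

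Pkm encodes pyruvate kinase M, which makes pyruvate and ATP in the last step of glycolysis. It read 2124 and 2318 units in Eph_EN_DN tumours, against 3068 and 3101 units in Eph_EN tumours, so that the groups did not overlap. The difference was -0.47 ± 0.17 (SE), with an interval of -0.83 to -0.11 and an adjusted p of 0.350, and it was -0.31 with quantile normalization. The array does not separate the M1 and M2 splice forms here, since 1 probe set stands for the gene.

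Adm encodes adrenomedullin, a secreted vasodilator peptide and a known HIF target. It read 25.0 and 101 units in Eph_EN_DN tumours, against 33.3 and 35.4 units in Eph_EN tumours. The groups overlapped, since Eph_EN_DN tumour 1 was the lowest of the 4 and Eph_EN_DN tumour 2 the highest. The difference of 0.46 ± 0.39 (SE, adjusted p = 0.746) was -0.30 without Eph_EN_DN tumour 2 and 1.22 without Eph_EN_DN tumour 1. The second Adm probe set read 8.93 and 82.6 units in Eph_EN_DN tumours, against 37.1 and 28.3 units in Eph_EN tumours. Its difference was 0.031.

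**Figure D2:**
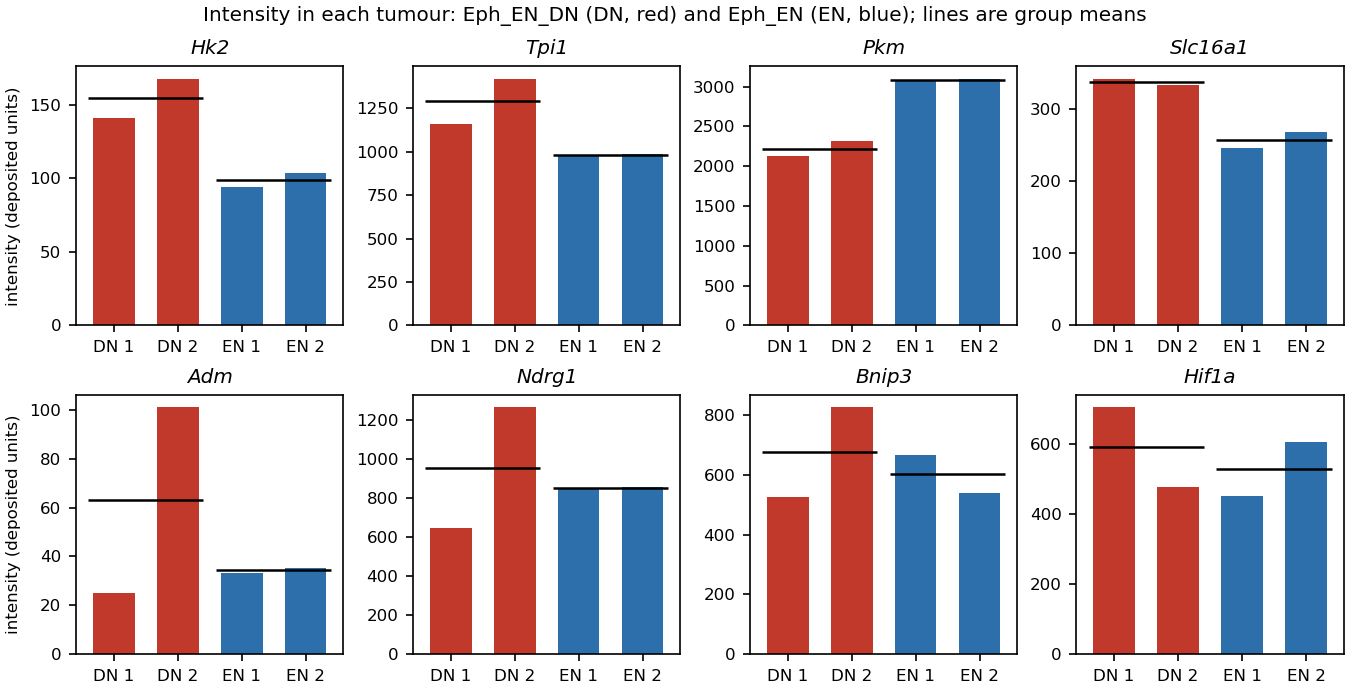
Deposited intensity of 8 members in each tumour, Eph_EN_DN (DN) left of Eph_EN (EN), with horizontal lines at the group means. Hk2, Tpi1, Pkm and Slc16a1 had groups that did not overlap, whereas in Adm, Ndrg1, Bnip3 and Hif1a the Eph_EN_DN tumours lay apart from each other, Adm at 25.0 and 101 units. The Eph_EN tumours also lay apart for Bnip3 (665 and 538 units) and Hif1a (453 and 606 units).

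HIF binds DNA at a short core, written here as ACGTG or GCGTG and searched on both strands. The 250 bases upstream of the annotated start of transcription, from a RefSeq table of build GRCm38.p6, were available for 33 of the 36 genes tested. A core lay in at least 1 upstream window of 30 of these genes (90.9%), against 58.4% of the 10690 genes tested with such a window. Per window the shares were 77.1% of 48 for the members and 52.8% of 13632 for all genes tested. The sequences below are shown for the members with the 2 largest positive and the 2 largest negative differences among those with a core, so that the windows can be set beside the values; many members were listed as known HIF targets, and the window of Pkm is 1 of 2. They run from 5′ to 3′ on the strand of the gene, with every core in capitals; the reverse complements of the cores read CACGT and CACGC.
Hk2, chr6:82774455-82774704, minus strand: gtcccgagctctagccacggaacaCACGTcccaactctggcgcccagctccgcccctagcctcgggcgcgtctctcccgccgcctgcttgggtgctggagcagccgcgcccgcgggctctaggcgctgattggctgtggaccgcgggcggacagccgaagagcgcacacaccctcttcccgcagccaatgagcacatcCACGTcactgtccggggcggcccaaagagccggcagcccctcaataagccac
Adm, chr7:110627407-110627656, plus strand: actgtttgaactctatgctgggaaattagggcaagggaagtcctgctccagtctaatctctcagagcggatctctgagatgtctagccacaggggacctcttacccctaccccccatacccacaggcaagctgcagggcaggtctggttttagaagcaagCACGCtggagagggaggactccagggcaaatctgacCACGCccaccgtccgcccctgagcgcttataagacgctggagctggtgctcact
Pkm, chr9:59656977-59657226, plus strand: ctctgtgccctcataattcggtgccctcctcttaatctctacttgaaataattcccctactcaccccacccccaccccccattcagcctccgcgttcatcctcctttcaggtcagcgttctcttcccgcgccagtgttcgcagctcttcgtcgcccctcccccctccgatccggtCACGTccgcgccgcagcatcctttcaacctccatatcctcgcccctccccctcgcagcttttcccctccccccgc
Car9, chr4:43506776-43507025, plus strand: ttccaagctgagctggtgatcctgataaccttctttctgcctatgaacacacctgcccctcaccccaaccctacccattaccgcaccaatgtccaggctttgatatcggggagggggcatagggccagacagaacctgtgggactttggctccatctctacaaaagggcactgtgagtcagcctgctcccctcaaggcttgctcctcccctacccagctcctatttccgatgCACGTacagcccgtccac
Hk2 and Adm each hold 2 cores in this window, and Pkm and Car9 hold 1 each. A core is a match of letters, not a measured binding site. Members with and without a match were found among both signs of difference: the windows of Tpi1, Eno2 and Car12 held no core, with differences of 0.38, 0.41 and -0.036.

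On the probe set used for each gene, the mRNA of the HIF alpha subunits differed more between single tumours of a group than between group means. Hif1a, the broadly expressed alpha subunit, read 704 and 476 units in Eph_EN_DN tumours, against 453 and 606 units in Eph_EN tumours. The groups overlapped, and the difference was 0.14 ± 0.24 (SE, adjusted p = 0.893). All 3 Hif1a probe sets above the filter were higher in Eph_EN_DN tumour 1 than in Eph_EN_DN tumour 2, and the dimmest of the 3, at 255 and 97.6 units in Eph_EN_DN tumours, against 81.2 and 106 units in Eph_EN tumours, differed by 0.69. Epas1, which encodes HIF-2 alpha and is abundant in endothelium, read 214 and 270 units in Eph_EN_DN tumours, against 234 and 358 units in Eph_EN tumours (-0.25 ± 0.24, SE, adjusted p = 0.777). The dimmer Epas1 probe set read 29.8 and 26.6 units in Eph_EN_DN tumours, against 48.6 and 49.6 units in Eph_EN tumours. There the groups did not overlap, and the difference was -0.56. Beside Epas1, the 10 endothelial markers summed to 486 and 573 units in Eph_EN_DN tumours and to 642 and 881 units in Eph_EN tumours, and 4 of them (Pecam1, Tek, Tie1 and Vwf) lay below the filter on dim probe sets. Their part in the Epas1 values was not tested.

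The 5 oxygen sensors and nuclear HIF targets differed by -0.063 to 0.30. Egln1, the main prolyl hydroxylase that marks HIF, read 199 and 238 units in Eph_EN_DN tumours, against 213 and 204 units in Eph_EN tumours (0.055 ± 0.21, SE). Egln3, a hydroxylase that is itself induced by HIF, read 79.1 and 111 units in Eph_EN_DN tumours, against 94.9 and 78.8 units in Eph_EN tumours (0.10 ± 0.22, SE). On both of these probe sets Eph_EN_DN tumour 2 was the highest of the 4, and the groups overlapped. On the dimmer probe sets the groups overlapped as well, but Eph_EN_DN tumour 2 was not the highest of the 4. The dimmer Egln1 probe set read 145 and 183 units in Eph_EN_DN tumours, against 191 and 175 units in Eph_EN tumours (-0.15). The dimmer Egln3 probe set read 48.1 and 38.1 units in Eph_EN_DN tumours, against 41.9 and 48.2 units in Eph_EN tumours (-0.050). Kdm3a, a histone H3 lysine demethylase induced in hypoxia, read 192 and 230 units in Eph_EN_DN tumours, against 167 and 170 units in Eph_EN tumours, without overlap (0.30 ± 0.21, SE, adjusted p = 0.702). Ankrd37, an ankyrin repeat protein, was at -0.063 and Mxi1, an antagonist of MYC, at 0.14. A dimmer Mxi1 probe set was at -0.065. On the probe set used for each gene, 4 of these 5 genes were positive, and none was called.

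Both glucose transporters had differences below 0, and neither was called. Slc2a1, which encodes GLUT1, the basal glucose transporter, read 192 and 277 units in Eph_EN_DN tumours, against 255 and 212 units in Eph_EN tumours (-0.010 ± 0.23, SE, 95% interval -0.50 to 0.48). Its other probe sets differed by 0.21 and 0.27, so that the mean of all 3 was 0.15. Slc2a3, which encodes the high-affinity transporter GLUT3, was dim, at 32.5 and 20.2 units in Eph_EN_DN tumours and 37.6 and 35.4 units in Eph_EN tumours. Its groups did not overlap, but its interval of -1.12 to 0.47 was among the widest of the members. The other Slc2a3 probe set above the filter read 29.7 and 20.3 units in Eph_EN_DN tumours, against 37.9 and 20.4 units in Eph_EN tumours. There the groups overlapped, and the difference was -0.12.

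In the upper part of glycolysis, from hexokinase to triose phosphate isomerase, 9 genes were tested, 7 were positive and none was called, with a median of 0.084. Tpi1, triose phosphate isomerase, read 1160 and 1421 units in Eph_EN_DN tumours, against 980 and 986 units in Eph_EN tumours. Eph_EN_DN tumour 2 was the highest, the groups did not overlap, and the difference was 0.38 ± 0.20 (SE, adjusted p = 0.558). The other Tpi1 probe sets differed by 0.41 and 0.38. The probe set used for Tpi1, as for Aldoa, Pgk1, Ndrg1 and Adm, carries the array maker's mark for probes that may also read related transcripts. Hk1, the constitutive hexokinase, read 346 and 360 units in Eph_EN_DN tumours, against 313 and 315 units in Eph_EN tumours (0.16 ± 0.21, SE). A dimmer Hk1 probe set read 50.5 and 88.9 units in Eph_EN_DN tumours, against 45.9 and 47.3 units in Eph_EN tumours (0.42).

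The phosphofructokinase subunits, which form the committed step of the pathway, were near 0. Pfkl, the liver-type subunit, read 203 and 365 units in Eph_EN_DN tumours, against 276 and 278 units in Eph_EN tumours. Eph_EN tumours were almost equal, while the Eph_EN_DN tumours lay on either side of them, and the difference was -0.020. Pfkp, the platelet-type subunit, was at -0.010 and Pfkm, the muscle-type subunit, at 0.048. A second Pfkp probe set read 107 and 119 units in Eph_EN_DN tumours, against 68.8 and 83.1 units in Eph_EN tumours, and differed by 0.49. Pfkfb3, which makes the activator fructose 2,6-bisphosphate, was dim, with an interval of -0.69 to 0.86. Of the aldolases, Aldoa was at 0.067 and Aldoc at 0.18, and the 5 Aldoa probe sets ran from -0.18 to 0.067.

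The lower part of glycolysis and its exits to lactate or mitochondria held Pkm at the low end and Eno2 at the high end. Pgk1, phosphoglycerate kinase, read 3096 and 3190 units in Eph_EN_DN tumours, against 2964 and 3150 units in Eph_EN tumours (0.040, 95% interval -0.31 to 0.39). Its other probe sets differed by -0.10 and -0.023. Pgam1, phosphoglycerate mutase, was at 0.051 with an interval of -0.34 to 0.44. Eno2, the neuronal enolase, read 84.1 and 41.5 units in Eph_EN_DN tumours, against 50.1 and 33.5 units in Eph_EN tumours, with overlap (0.41 ± 0.30, SE). That difference was 0.0070 without Eph_EN_DN tumour 1 and 0.81 without Eph_EN_DN tumour 2. Ldha, the lactate dehydrogenase subunit that favours lactate, read 2563 and 2801 units in Eph_EN_DN tumours, against 2911 and 2929 units in Eph_EN tumours. Both Eph_EN_DN tumours were below both Eph_EN tumours, but the difference of -0.12 ± 0.17 (SE, adjusted p = 0.863) was 0.062 with quantile normalization. Pdk1, the kinase that closes the pyruvate dehydrogenase entry to mitochondria, was at 0.064 with 4 probe sets from -0.42 to 0.14.

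Gapdh, the enzyme often used as a loading control, was read at 3 places along its transcript. The 3′ probe set read 4596 and 5038 units in Eph_EN_DN tumours, against 4756 and 5124 units in Eph_EN tumours, a difference of -0.037. The middle one read 4295 and 4866 units in Eph_EN_DN tumours, against 5028 and 5070 units in Eph_EN tumours (-0.14), and the 5′ one read 3922 and 4527 units in Eph_EN_DN tumours, against 5070 and 4929 units in Eph_EN tumours (-0.25). The nearer the probes lay to the 5′ end, the lower Eph_EN_DN stood against Eph_EN, and the middle and 5′ probe sets did not overlap. Dividing the 3′ value by the 5′ value gave 1.17 and 1.11 in Eph_EN_DN tumours, against 0.938 and 1.04 in Eph_EN tumours, and for beta-actin 1.31 and 1.34 in Eph_EN_DN tumours, against 1.11 and 1.19 in Eph_EN tumours. The 18S ribosomal control probe sets averaged 6.76 and 7.43 in Eph_EN_DN tumours, against 5.43 and 6.40 in Eph_EN tumours, as mean log2(intensity + 16), without overlap between groups and higher in tumour 2 of each. The ratios and the 18S values moved with the groups beside every difference given here, and their part in those differences was not tested. With the Gapdh control probe sets added to the fit, the brightest, at the 3′ end, had a 95% interval of -0.36 to 0.29 (adjusted p = 0.965).

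**Figure D3:**
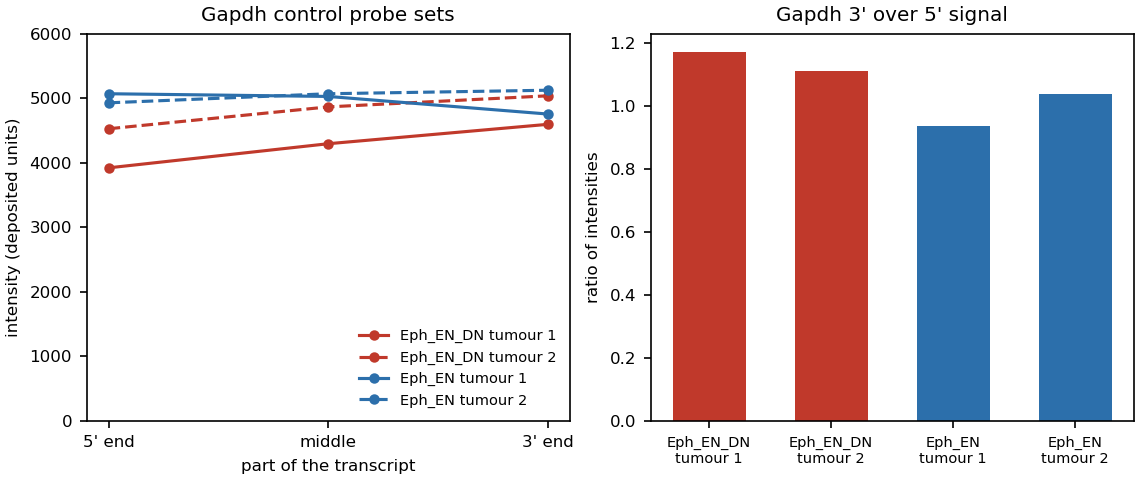
Left, intensity of the Gapdh control probe sets at the 5′ end, middle and 3′ end of the transcript in the 4 tumours; right, the 3′ value over the 5′ value. The tumours lie within 4596 to 5124 units at the 3′ end, and both Eph_EN_DN ratios (1.17 and 1.11) are above both Eph_EN ratios (0.938 and 1.04).

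Genes that move lactate and acid out of the cell did not share a direction, with 1 of 4 positive and none called. Slc16a1, which encodes the monocarboxylate transporter MCT1, read 343 and 334 units in Eph_EN_DN tumours, against 247 and 269 units in Eph_EN tumours. The groups did not overlap, and the difference was 0.37 ± 0.21 (SE, adjusted p = 0.595). Slc16a3, which encodes the hypoxia-inducible lactate exporter MCT4, read 51.6 and 59.9 units in Eph_EN_DN tumours, against 57.0 and 86.2 units in Eph_EN tumours (-0.27 ± 0.25, SE). Car9, the membrane carbonic anhydrase widely used as a marker of hypoxic tumour tissue, read 118 and 181 units in Eph_EN_DN tumours, against 165 and 208 units in Eph_EN tumours. Eph_EN tumour 2 was the highest and Eph_EN_DN tumour 1 the lowest, with overlap, and the difference was -0.31 ± 0.24 (SE, adjusted p = 0.714). It was -0.031 without Eph_EN_DN tumour 1 and -0.59 without Eph_EN_DN tumour 2. Car12, a related carbonic anhydrase, was at -0.036 with an interval of -0.86 to 0.78.

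Hypoxia targets of mitochondria and stress were split within the Eph_EN_DN group. Ndrg1, a stress-induced gene and a common marker of hypoxia, read 646 and 1265 units in Eph_EN_DN tumours, against 846 and 858 units in Eph_EN tumours. On this probe set the Eph_EN tumours were almost equal, with one Eph_EN_DN tumour below and the other above them. The difference was 0.085 ± 0.26 (SE). It was -0.39 without Eph_EN_DN tumour 2 and 0.56 without Eph_EN_DN tumour 1. The 5 Ndrg1 probe sets ran from -0.21 to 0.48. The one at 0.48 read 379 and 534 units in Eph_EN_DN tumours, against 374 and 272 units in Eph_EN tumours, without overlap. Bnip3, a mitochondrial receptor for mitophagy, read 526 and 825 units in Eph_EN_DN tumours, against 665 and 538 units in Eph_EN tumours (0.14 ± 0.24, SE). Ddit4, an inhibitor of mTORC1 signalling, read 122 and 189 units in Eph_EN_DN tumours, against 189 and 166 units in Eph_EN tumours (-0.20 ± 0.23, SE). Higd1a, a small mitochondrial protein, was at 0.094, and its other probe set above the filter was at -0.12.

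The enzymes of collagen hydroxylation and disulphide formation were all 3 positive, and none was called. Ero1a, which reoxidises protein disulphide isomerase in the endoplasmic reticulum, read 167 and 232 units in Eph_EN_DN tumours, against 138 and 162 units in Eph_EN tumours, without overlap (0.36 ± 0.23, SE, adjusted p = 0.643). Its other probe sets differed by 0.13 and 0.16, and on both the groups overlapped. The collagen prolyl hydroxylase subunits P4ha1 and P4ha2 were at 0.12 and 0.20, and a dimmer P4ha1 probe set was at -0.32. Without Eph_EN_DN tumour 2 they were at -0.041 and -0.040, P4ha2 was at -0.013 without Eph_EN tumour 1, and P4ha1 was at -0.099 with its probe sets averaged.

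The gap between the 2 Eph_EN_DN tumours was wider than the gap between groups. Over the members its median size was 0.32, against 0.14 for the difference between groups, whereas over all genes these were 0.23 and 0.21. These measures are unlike, since the first sets 1 tumour against 1 and the second compares means of 2. Without any group effect the first would still tend to be larger. The gap between the 2 Eph_EN tumours had a median size of 0.11 over the members and 0.26 over all genes. Of the 36 members, 30 were higher in Eph_EN_DN tumour 2 than in Eph_EN_DN tumour 1 (83.3%), where 49.1% of all genes tested were. The median difference between these tumours was 0.24 over the members and -0.0075 over all genes. Between the 2 Eph_EN tumours, 22 members (61.1%) and 57.1% of all genes were higher in tumour 2, with medians of 0.012 and 0.063. Since each tumour is 1 sample, this is a description of these 4 arrays and carries no test.

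The size of the gap differed by role. The 5 mitochondrial and stress genes tested were all higher in Eph_EN_DN tumour 2, with a median gap of 0.63, led by Adm (1.51) and Ndrg1 (0.95). So were all 5 oxygen sensors and nuclear targets (0.24), all 3 folding and collagen genes (0.44) and 8 of 9 upper glycolysis genes (0.29), with Pfkl at 0.80. Of the lower glycolysis genes 4 of 6 were higher in tumour 2, with a median of 0.038 and a range from -0.80 for Eno2 to 0.13 for Ldha. The 6 members that were lower in Eph_EN_DN tumour 2 were Slc2a3 (-0.42), Pfkm (-0.098), Pgam1 (-0.11), Eno2 (-0.80), Hif1a (-0.55) and Slc16a1 (-0.034).

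Further probe sets of these genes were read on the same arrays and are no independent samples. Of the 19 members with more than 1 probe set above the filter, 11 had another whose difference between groups was of opposite sign. Of 70 member probe sets above the filter, 54 were higher in Eph_EN_DN tumour 2, and 38 were higher in Eph_EN tumour 2. The share over all probe sets was not counted. The 54 held all 5 of Ndrg1, all 5 of Aldoa, all 3 of Tpi1 and both of Adm. Probe sets were split for Pfkl (2 of 3), Pdk1 (2 of 4), and Egln3, Mxi1, Higd1a and Epas1 (1 of 2 each). None was higher in Eph_EN_DN tumour 2 for Hif1a (0 of 3) or Slc2a3 (0 of 2). The second Ndrg1 probe set read 403 and 1034 units, and the second Adm probe set 8.93 and 82.6 units, in Eph_EN_DN tumours 1 and 2. With each array centred on its median, 27 of 36 members were higher in Eph_EN_DN tumour 2 (40.4% of all genes), with quantile normalization 31 (52.8%), and with the probe sets of a gene averaged 29 (49.6%); these settings were added after seeing the data.

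**Figure D4:**
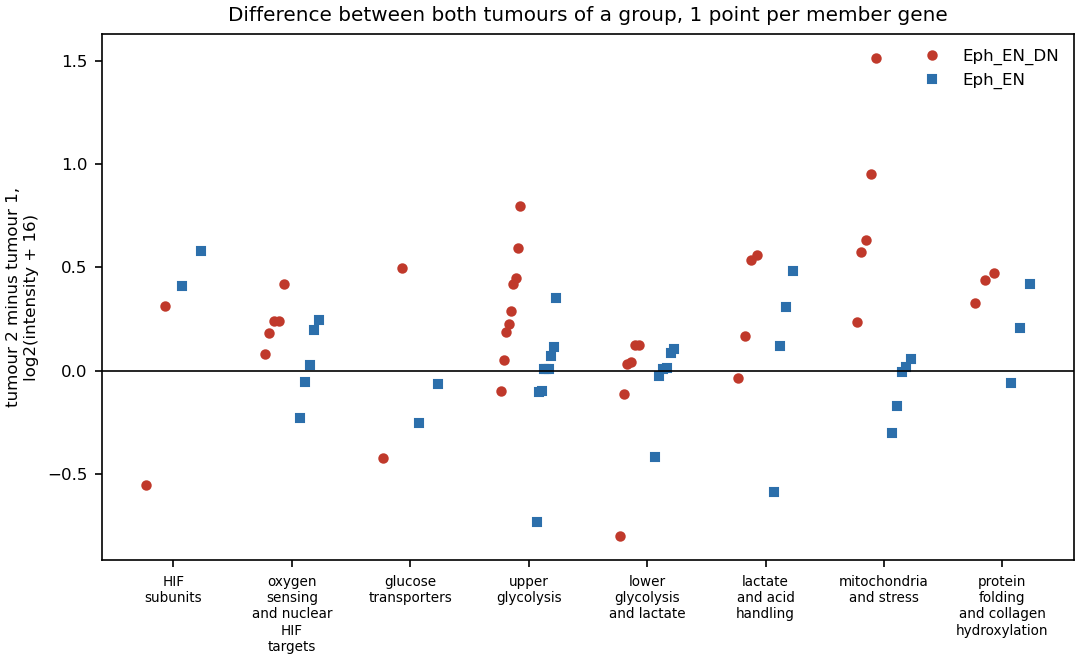
Tumour 2 minus tumour 1 of each group on the log2(intensity + 16) scale, by role, with 1 point for each of the 36 genes tested (circles Eph_EN_DN, squares Eph_EN). In Eph_EN_DN 30 points lie above 0, up to 1.51 for Adm; in Eph_EN 22 do.

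Markers of other cells also differed between these tumours. The 10 adipocyte markers on the array summed to 1605 and 6905 units in Eph_EN_DN tumours 1 and 2, against 721 and 494 units in Eph_EN tumours, and Cidea, Lep and Pparg lay below the filter. All 7 adipocyte markers tested were higher in Eph_EN_DN tumour 2. The 10 macrophage markers summed to 12125 and 9641 units in Eph_EN_DN tumours, against 18126 and 15259 units in Eph_EN tumours, and the 10 fibroblast markers to 24366 and 20968 units in Eph_EN_DN tumours, against 27513 and 34835 units in Eph_EN tumours. The 10 mammary epithelial markers summed to 2893 and 3201 units in Eph_EN_DN tumours and 3553 and 3794 units in Eph_EN tumours, with Esrp1 and Krt19 below the filter. Much of that sum was Krt8, at 1596 and 1470 units in Eph_EN_DN tumours, against 2048 and 2017 units in Eph_EN tumours. Of the 8 tested, 5 had negative differences and 3 positive ones: Krt14 (0.67), Cldn4 (0.46) and Cdh1 (0.15). Of 12 skeletal muscle markers, 7 lay below the filter (Actn3, Mb, Myh2, Myh4, Myh7, Mylpf and Tnnt3), and the list summed to 501 and 586 units in Eph_EN_DN tumours, against 346 and 384 units in Eph_EN tumours. Of 8 erythroid markers 4 were named on the array, with Alas2, Epb42 and Slc4a1 below the filter, and they summed to 135 and 100.3 units in Eph_EN_DN tumours, against 137 and 119 units in Eph_EN tumours. The 9 markers of dividing cells on the array summed to 5420 and 4434 units in Eph_EN_DN tumours, against 2777 and 4938 units in Eph_EN tumours, and all 9 were lower in Eph_EN_DN tumour 2 than in tumour 1. Between groups 4 of 7 adipocyte markers tested (median difference 1.71) and 1 of 5 skeletal muscle markers (0.26) were called higher in Eph_EN_DN tumours. None was called in the endothelial (median -0.36), fibroblast (-0.60), macrophage (-0.49), mammary epithelial (-0.28), dividing cell (0.29) and erythroid lists, the last with 1 gene tested, at -0.32; at an unadjusted p under 0.05 these lists held 3 of 6, 7 of 10, 5 of 10, 3 of 8, 2 of 9 and 0 of 1 genes in that order. The part of these lists in the values of the glycolysis and hypoxia genes was not tested.

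Neighbouring pathways gave no called gene either, read against the same 0.555%. Of 33 other HIF pathway genes tested, 0 were called in either direction, 14 were positive and the median was -0.029, with 1 at an unadjusted p under 0.05. The median was 0.0094 without Eph_EN_DN tumour 1, -0.083 without Eph_EN tumour 1 and -0.13 with median centring. The largest differences there were those of Gbe1, the glycogen branching enzyme (-0.57 ± 0.38, SE), and Hif3a, a HIF subunit that can act as an inhibitor (-0.50 ± 0.25, SE). Of 15 other genes of glycolysis and gluconeogenesis, 0 were called, the median was -0.0077, and 2 had an unadjusted p under 0.05. The median was 0.20 without Eph_EN tumour 1, -0.18 without Eph_EN tumour 2 and 0.16 without Eph_EN_DN tumour 1. The 2 genes were Pck1, the cytosolic phosphoenolpyruvate carboxykinase, and Pklr, the pyruvate kinase of liver and red cells. Pck1 read 54.7 and 80.3 units in Eph_EN_DN tumours, against 29.9 and 24.5 units in Eph_EN tumours (0.94 ± 0.30, SE, adjusted p = 0.265). Pck1 is also a gene of adipocytes, whose markers are given above. Pklr read 199.6 and 102 units in Eph_EN_DN tumours, against 297 and 218 units in Eph_EN tumours (-0.76 ± 0.27, SE, adjusted p = 0.330).

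Of 24 genes of pyruvate entry and the TCA cycle, 0 were called, 14 were positive and the median was 0.11, with 1 at an unadjusted p under 0.05. That median was 0.0088 with median centring, -0.0093 without Eph_EN tumour 1 and 0.19 without Eph_EN tumour 2. Pdk2, a pyruvate dehydrogenase kinase, read 25.4 and 21.3 units in Eph_EN_DN tumours, against 45.9 and 43.2 units in Eph_EN tumours (-0.62 ± 0.35, SE). Sdhc, a subunit of succinate dehydrogenase, read 355 and 466 units in Eph_EN_DN tumours, against 620 and 537 units in Eph_EN tumours (-0.49 ± 0.22, SE, adjusted p = 0.478). Of 7 pentose phosphate pathway genes, 0 were called and 0 had an unadjusted p under 0.05, with a median of 0.040, which was 0.19 without Eph_EN_DN tumour 1, 0.0088 without Eph_EN_DN tumour 2 and -0.058 with median centring. The largest differences there were 0.39 for Prps1, which makes phosphoribosyl pyrophosphate, and 0.22 for Tkt, transketolase.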

How the data were processed

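Biotin-labelled cRNA of 4 tumours was hybridised to Affymetrix arrays, per the labels' protocols. The authors deposited a linear intensity for each of 45101 probe sets; their summarisation, background correction and scaling are not given in the sources used here. Precision is limited by there being 4 arrays. Probe sets took their gene from the platform annotation, with symbols looked up by Entrez ID in RefSeq GRCm38.p6 (0 changed). The 64 control probe sets and the dimmest 40% by mean log2(intensity + 16) were left out; the pseudocount understates changes of dim genes. The two-sided test was limma 3.58.1 (R 4.3.3; lmFit, eBayes with an intensity trend), adjusted over 13331 genes and tested on simulated data. Alternatives were no filter or a 60% filter, quantile normalization, median centring, pseudocounts of 1 and 64, averaged or separate probe sets, no trend, a robust prior, the tumour number as a block, each tumour left out, and thresholds of 0.10 and 0.01. Members, gene lists and marker lists were chosen with earlier results of these data known. All members are described; no gene of a neighbouring list was called, and the 2 largest differences of each are given by name, as the rule asks in that case. The further probe sets named and the 8 genes plotted by tumour were chosen after their values were seen.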

Additional observations from a re-analysis of the deposited data

How the results depend on the processing

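No member was called in any of the 14 other fits, which held all 36 except the fit without the dimmest 60% (32 members; Slc2a3, Pfkfb3, Car12 and Adm left out), at adjusted p thresholds of 0.10 or 0.01, or with every probe set tested separately, and the lowest adjusted p of a member was 0.182, without Eph_EN_DN tumour 1. The median of the members ran from -0.057 without Eph_EN_DN tumour 2 to 0.19 without Eph_EN_DN tumour 1 and was -0.023 with median centring, which moved the median of all genes to -0.080. Tumours of the 2 groups share only a number (the gaps between tumours 1 and 2 of both groups correlated at -0.042 over 27022 probe sets), and with the replicate block 3 genes were higher and 8 lower over all genes, with 0 members called. Counts over all genes, 18 higher and 56 lower, were 9 and 29 with quantile normalization, 7 and 28 with averaged probe sets, and 1 and 4 without the intensity trend; 7 were higher with median centring, 29 at a threshold of 0.10, and 4 and 13 passed 0.01. With a tumour left out they were 9 to 90 higher and 9 to 105 lower: 17 and 27 without Eph_EN_DN tumour 1, 9 and 9 without Eph_EN_DN tumour 2, 85 and 88 without Eph_EN tumour 1, 90 and 105 without Eph_EN tumour 2; a lone tumour is then assumed to vary like the other group.

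Signs of small differences were not fixed: 12 of 36 members kept their sign in every fit that held them (13 of the 14 for Slc2a3). Of these, Hk1 (0.13 to 0.19), Hk2 (0.46 to 0.68), Pkm (-0.53 to -0.41) and Slc16a1 (0.31 to 0.43) moved by under 1.5 times with a tumour left out. The others moved by more: Slc2a3 (-0.54 to -0.11), Tpi1 (0.23 to 0.52), Eno2 (0.0070 to 0.81), Car9 (-0.59 to -0.031), Ero1a (0.14 to 0.58), Kdm3a (0.18 to 0.42), Slc16a3 (-0.51 to -0.027) and Mxi1 (0.018 to 0.26). Processing moved Hk1 and Pkm further. Hk1 was 0.061 with median centring and 0.29 with averaged probe sets. Pkm was -0.57 with median centring and -0.31 with quantile normalization. Median centring turned Pfkm (-0.051), Pfkfb3 (-0.015), Aldoa (-0.032), Pgk1 (-0.058), Pgam1 (-0.048), Pdk1 (-0.035), Ndrg1 (-0.014), Egln1 (-0.043) and Higd1a (-0.0048). Averaging probe sets turned Slc2a1 (0.15), Pfkp (0.15), Aldoa (-0.053), Pgk1 (-0.028), Pdk1 (-0.072), Egln1 (-0.047), P4ha1 (-0.099) and Higd1a (-0.015), and quantile normalization turned Pfkp (0.0020) and Ldha (0.062). With 1 tumour left out, 22 members changed sign, with ranges of -0.26 to 0.24 for Slc2a1, -0.42 to 0.38 for Pfkl, -0.13 to 0.22 for Pfkm, -0.22 to 0.20 for Pfkp, -0.28 to 0.45 for Pfkfb3, -0.028 to 0.16 for Aldoa, -0.048 to 0.40 for Aldoc, -0.0035 to 0.084 for Pgk1, -0.0060 to 0.11 for Pgam1, -0.33 to 0.26 for Car12, -0.18 to 0.45 for Bnip3, -0.39 to 0.56 for Ndrg1, -0.30 to 1.22 for Adm, -0.066 to 0.18 for Egln1, -0.11 to 0.31 for Egln3, -0.16 to 0.035 for Ankrd37, -0.041 to 0.29 for P4ha1, -0.040 to 0.43 for P4ha2, -0.49 to 0.087 for Ddit4, -0.13 to 0.42 for Hif1a, -0.54 to 0.037 for Epas1 and -0.024 to 0.21 for Higd1a. The cause of these changes was not tested.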

Other observations

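Some genes of the neighbouring lists are named here after their values were seen. Angptl4, a secreted regulator of lipoprotein lipase, read 186 and 374 units in Eph_EN_DN tumours, against 197 and 212 units in Eph_EN tumours, so that Eph_EN_DN tumour 2 stood apart as it did for Adm. Edn1, which encodes the vasoconstrictor endothelin, read 93.9 and 26.8 units in Eph_EN_DN tumours, against 87.7 and 34.4 units in Eph_EN tumours, a split within both groups. On the glycolysis list, Eno3, the enolase of muscle, read 366 and 522 units in Eph_EN_DN tumours, against 306 and 368 units in Eph_EN tumours, with overlap. Over the 33 other HIF pathway genes tested, 15 (45.5%) were higher in Eph_EN_DN tumour 2 than in Eph_EN_DN tumour 1. That share was near the 49.1% of all genes and unlike the 30 of 36 members. The skew was not particular to the members. It held for 11 of 15 other glycolysis and gluconeogenesis genes (73.3%, median gap 0.22) and 6 of 7 pentose phosphate genes (85.7%, 0.29). For pyruvate entry and the TCA cycle it was 14 of 24 (58.3%, 0.048). These differences between lists were not tested.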
